A study of Mus musculus with 29 samples.

Results

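The SCUBE and Hedgehog genes of the aortic arch were described across genotype, age and diet. They comprised 10 of the 56748 genes in the counts table, named from the pathway: Scube1, Scube2, Scube3, Ptch1, Boc, Smo, Hhip, Gli1, Gli2 and Gli3. The set was selected on measured values, namely that Scube3 was lower in Ercc1Δ/- than in WT aortas and that Hhip was higher after dietary restriction (DR). These values, and any other comparison of Scube3 between groups or of Hhip with libraries of 22 weeks, rest on libraries used in the selection and are given below as a description without a test. Of the 10 genes, 9 had more than 10 counts in more than 10 libraries and were tested with the 12353 genes that passed this limit. Scube2, with 13 counts over all 28 libraries, did not pass.

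Bulk RNA was sequenced from the aortic arch of male and female mice, 1 library per mouse. Ercc1Δ/- mice carry 1 null and 1 hypomorphic allele of the DNA repair gene Ercc1 in every cell and age prematurely. They and their WT (Ercc1+/+) littermates were F1 hybrids of C57BL6J and FVB, fed a synthetic diet. The groups were WT and Ercc1Δ/- mice of 6 weeks fed ad libitum (AL, 5 mice each), of 22 weeks fed AL (4 mice each after 1 WT library had been left out), and of 22 weeks on DR (5 mice each). DR was started at 7 weeks of age with 10% less food and stood at 30% from 9 weeks onward.

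Hedgehog ligands are lipid-modified proteins that leave the producing cell with the help of the transporter Disp1 and of secreted SCUBE proteins. On the receiving cell they bind Ptch1 together with co-receptors such as Boc, which frees Smo from inhibition and lets the Gli transcription factors act, with Gli1 and Gli2 mainly as activators and Gli3 mainly as a repressor. Gli1, Ptch1 and the decoy receptor Hhip are themselves induced by the pathway, and Hhip and Ptch1 restrain it. In the artery wall, Gli1 and Ptch1 are known from cells of the adventitia.

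The stretches just upstream of Scube3, Hhip and the ligand gene Ihh are shown because Scube3 and Hhip led to the selection and Ihh was the ligand gene that differed between the genotypes. Each is the 250 bases before the annotated start in GRCm39, written 5′ to 3′ on the strand of the gene, with GC boxes (GGGCGG on either strand) in capitals. They lie at chr17:28360696-28360945 (plus strand), chr8:80784659-80784908 (minus strand) and chr1:74990838-74991087 (minus strand).
Scube3: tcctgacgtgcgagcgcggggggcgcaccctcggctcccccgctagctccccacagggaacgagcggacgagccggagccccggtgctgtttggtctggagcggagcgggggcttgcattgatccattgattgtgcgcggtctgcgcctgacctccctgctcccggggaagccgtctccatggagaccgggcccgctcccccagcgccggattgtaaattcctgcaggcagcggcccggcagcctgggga
Hhip: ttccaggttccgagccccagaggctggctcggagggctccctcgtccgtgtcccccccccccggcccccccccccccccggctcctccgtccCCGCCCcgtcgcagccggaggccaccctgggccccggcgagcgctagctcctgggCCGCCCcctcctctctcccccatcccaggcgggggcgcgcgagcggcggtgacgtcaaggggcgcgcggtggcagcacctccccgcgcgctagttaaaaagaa
Ihh: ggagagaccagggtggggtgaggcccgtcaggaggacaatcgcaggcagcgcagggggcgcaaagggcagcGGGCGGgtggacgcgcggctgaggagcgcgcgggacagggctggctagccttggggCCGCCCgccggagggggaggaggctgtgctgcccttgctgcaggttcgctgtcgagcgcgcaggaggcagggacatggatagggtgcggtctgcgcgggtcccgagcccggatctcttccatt

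Windows of this kind were read for the 8 of the 10 genes that also have an entry in the RefSeq promoter table. Gli1 and Boc have none. The GLI motif GACCACCCA was in 0 of these 8 windows and in 0.235% of 9376 tested genes, both strands searched. Its core CCACCCA, which lies inside the longer motif, was found in the window of Gli3 alone, against 8.26% of the tested genes. A GC box stood in 4 of the 8 windows, against 40.2% of the tested genes, and was absent from that of Scube3. The CArG box, which the smooth muscle factor SRF binds, was in 0 of 8 and in 1.26% of the tested genes. These counts are of letters in a short window only.

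In GRCm39, Scube3 (ENSMUSG00000038677) lies on chromosome 17 from 28360946 to 28393833 and Hhip (ENSMUSG00000064325) on chromosome 8 from 80692480 to 80784658. Scube1 lies on chromosome 15 (83486786 to 83609245), Scube2 on 7 (109395631 to 109464906), Ptch1 on 13 (63656142 to 63721412) and Boc on 16 (44305290 to 44379432). Smo lies on chromosome 6 (29735407 to 29762532), Gli1 on 10 (127165751 to 127177865), Gli2 on 1 (118761858 to 118982598) and Gli3 on 13 (15637809 to 15904611).

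Per kilobase of exon, Scube3 stood first among the 10 genes, with a median of 51.8 RPKM over the 28 libraries (21.5 to 89.1). Boc followed with 22.5 RPKM, Smo with 13.2 and Gli1 with 10.1. Gli2 (3.76 RPKM), Hhip (3.17), Ptch1 (1.79) and Gli3 (0.806) were lower. Neighbours in this order overlapped in their ranges over the libraries, except for Gli1 (6.13 to 15.5 RPKM) and Gli2 (2.51 to 5.64 RPKM). Scube1 was close to the limit of detection with 0.182 RPKM and 1 to 50 counts per library. Of the SCUBE family, Scube3 held 55880 counts over the 28 libraries, Scube1 306 and Scube2 13.

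Libraries held 921167 to 9616382 counts on genes. Those of Ercc1Δ/- mice at 22 weeks on AL (1294980 to 3855444) were all shallower than those of WT mice of that age and diet (3903589 to 9616382). The same held on DR (921167 to 2572523 against 2660422 to 6124471), so depth moved with genotype in both comparisons. Ercc1 itself, which checks the labels, was 1.41, 0.97 and 1.01 log2 units lower in Ercc1Δ/- mice at 6 weeks, at 22 weeks on AL and at 22 weeks on DR (edgeR quasi-likelihood, adjusted p = 3.2e-04, 0.00271 and 5.66e-04). Levels in a library are given in CPM, counts scaled by library size. The 7 smooth muscle markers summed to 16580 to 25710 CPM in Ercc1Δ/- and 31580 to 37890 CPM in WT mice at 22 weeks on AL, and to 23250 to 25070 CPM against 32750 to 42610 CPM on DR. All 7 markers had a negative log2 difference of Ercc1Δ/- from WT mice in each of the 3 comparisons of the genotypes, and 2, 6 and 7 of them were called at 6 weeks, at 22 weeks on AL and on DR. The 5 macrophage markers summed to 220 to 426 CPM in Ercc1Δ/- and 120 to 174 CPM in WT mice at 22 weeks on AL, and 4 of 5 were called higher. With DR, 3 of these 5 were called lower in Ercc1Δ/- mice, to a sum of 146 to 305 CPM. The 5 endothelial markers summed to 761 to 1296 CPM in Ercc1Δ/- and 378 to 814 CPM in WT mice on DR, and 3 of 5 were called higher. The 6 fibroblast markers summed to 3734 to 4976 CPM in Ercc1Δ/- and 4449 to 5673 CPM in WT mice at 22 weeks on AL. Of these, 2 of 6 were called lower (Pi16 and Col1a1). On DR the sums were 3154 to 4957 CPM and 3887 to 4688 CPM, with 2 of 6 called lower and 1 higher. Of 4 tested cardiac muscle markers, 1 (Tnnt2) was called higher in Ercc1Δ/- mice of 22 weeks on each diet. The part of these shifts in the values of Smo, Gli1, Hhip, Gpc3 and the other genes below was not tested. In bulk tissue, fewer cells of a type cannot be told apart from less RNA per cell. The WT library that was left out (400410 counts) held 564 CPM of Scube3 and 56.4 CPM of Hhip.

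Scube3 encodes a secreted glycoprotein that releases Hedgehog ligands and can bind receptors of the TGF-β family. At 6 weeks, the 5 WT libraries held 507, 556, 597, 607 and 649 CPM and the 5 Ercc1Δ/- libraries 285, 341, 349, 429 and 431 CPM. At 22 weeks on AL, WT mice held 665, 671, 746 and 807 CPM, whereas Ercc1Δ/- mice held 195, 201, 246 and 274 CPM. On DR the values were 550, 660, 717, 724 and 769 CPM in WT mice and 238, 251, 279, 336 and 345 CPM in Ercc1Δ/- mice. The genotypes did not overlap at either age or on either diet, and these differences are the ones on which Scube3 was selected.

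In log2 units the difference of Ercc1Δ/- from WT mice was -0.65 ± 0.11 (SE) at 6 weeks, -1.64 ± 0.13 at 22 weeks on AL and -1.23 ± 0.12 on DR. The 22-week libraries of Ercc1Δ/- mice on AL lay below all those of 6-week Ercc1Δ/- mice. The log2 difference between these ages was -0.69 ± 0.12 in Ercc1Δ/- mice. In WT mice the 4 older libraries all lay above the 5 younger ones, with a log2 difference of 0.30 ± 0.12. Both ages had been used in the selection.

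On DR, Scube3 in WT mice was 684 ± 84.4 CPM (SD, n = 5) against 722 ± 67.5 CPM (n = 4) on AL, a log2 difference of -0.08 (95% interval -0.33 to 0.17). In Ercc1Δ/- mice it was 290 ± 48.7 CPM on DR and 229 ± 37.7 CPM on AL. The log2 difference was 0.36 (95% interval 0.09 to 0.63), and the 2 groups overlapped.

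**Figure D1:**
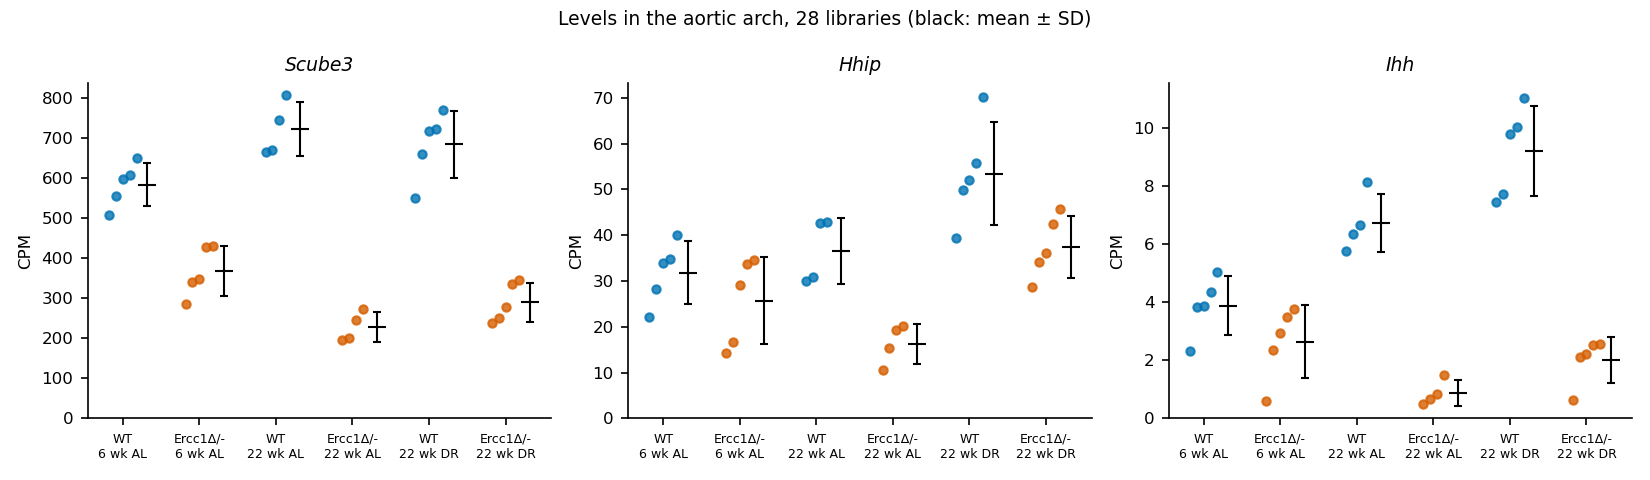
Scube3, Hhip and Ihh in CPM (vertical axes) in the 6 groups (horizontal axes); each point is 1 library of 1 mouse, with WT in blue and Ercc1Δ/- in orange, and the black bars are mean ± SD. Scube3 separates the genotypes in each pair of groups, Hhip is lowest in Ercc1Δ/- mice of 22 weeks on AL (10.5 to 20.1 CPM), and Ihh reaches at most 3.77 CPM in any Ercc1Δ/- library.

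Smooth muscle markers moved with Scube3. Set against the summed markers of each library, Scube3 stood at 20.6 ± 2.10 CPM per 1000 CPM of marker in WT and at 10.7 ± 0.834 in Ercc1Δ/- mice at 22 weeks on AL (SD, n = 4 each). On DR it was 19.2 ± 1.76 and 12.1 ± 2.40 (n = 5 each). At 6 weeks it was 16.8 ± 1.28 and 13.5 ± 1.28 (n = 5 each), with 1 Ercc1Δ/- library (15.7) at the level of the lowest WT library (15.7). The ratio was chosen after the values had been seen and is a description. The genotypes remained apart in it at 22 weeks on both diets. The part of cell composition in the Scube3 level was not tested further.

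**Figure D2:**
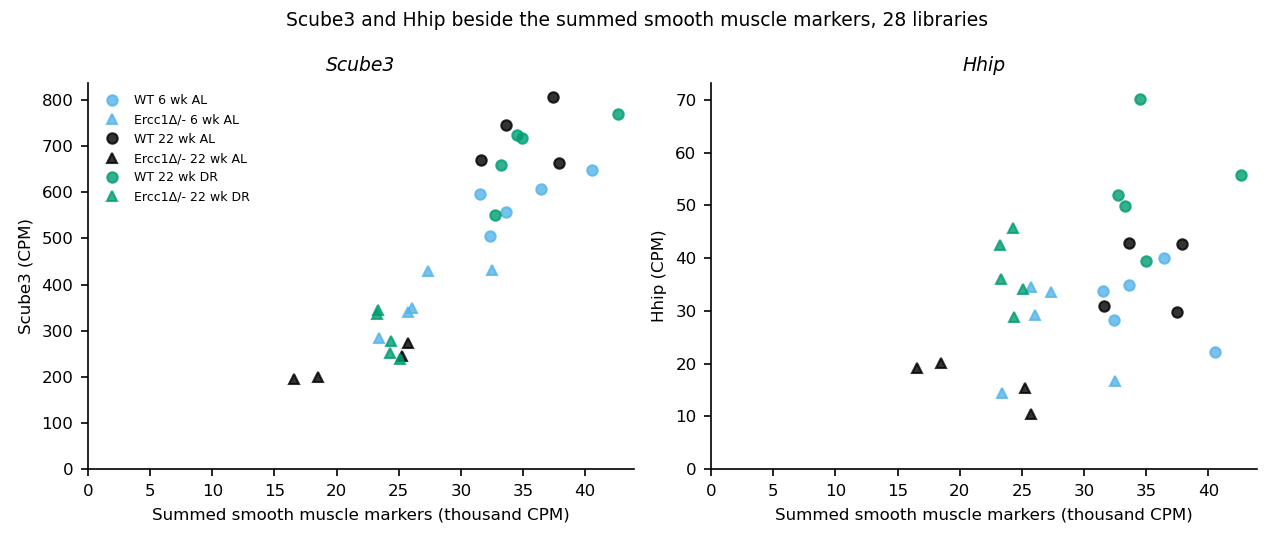
Scube3 (left) and Hhip (right) in CPM against the sum of 7 smooth muscle markers in units of 1000 CPM; each symbol is 1 of 28 libraries, with circles for WT and triangles for Ercc1Δ/- mice, in light blue for 6 weeks on AL, black for 22 weeks on AL and green for 22 weeks on DR. WT libraries lie to the upper right in the left panel, and in the right panel the 5 Ercc1Δ/- libraries on DR (28.8 to 45.7 CPM) lie above the 4 on AL, at marker sums (23250 to 25070 CPM) within the range of those (16580 to 25710 CPM).

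Over the 28 libraries, the 5 tested genes whose log2 CPM followed Scube3 most closely were Lrrfip1 (Pearson r = 0.951), Inpp5a (0.938), Flnc (0.938), Mcam (0.938) and Vasp (0.933). Flnc encodes the actin crosslinker filamin C, Mcam a cell adhesion molecule of vascular cells and Vasp an actin-associated protein. All points share the group structure, and after centring within the 6 groups the same r were 0.756, 0.58, 0.732, 0.549 and 0.57. Among the Hedgehog genes, Smo was the closest to Scube3 (r = 0.684, and 0.637 after centring). Hhip came next over the 28 libraries (0.557), but its r was -0.07 after centring.

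Scube1, which encodes a SCUBE protein best known from endothelium and platelets, held 2.85 ± 1.14 CPM (SD, n = 4) in WT and 1.91 ± 0.993 CPM (n = 4) in Ercc1Δ/- mice at 22 weeks on AL. Its groups overlapped in each comparison of groups and it passed no test, and its intervals were wide (log2 difference -0.46, 95% interval -1.49 to 0.57, in that comparison). Scube2 had at most 1 count per library, so no difference between groups was detectable at this depth.

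Of the ligands, Shh had 0 counts in 28 libraries, whereas Ihh (538 counts) and Dhh (733 counts) were found in all 28. Ihh, best known from cartilage and gut, held 5.77, 6.34, 6.67 and 8.13 CPM in WT mice at 22 weeks on AL. The Ercc1Δ/- mice of that age and diet held 0.486, 0.671, 0.850 and 1.51 CPM, from 1 to 3 counts each. On DR, WT mice held 7.44, 7.74, 9.81, 10.0 and 11.0 CPM and Ercc1Δ/- mice 0.646, 2.12, 2.21, 2.54 and 2.57 CPM. At 6 weeks WT mice held 2.31, 3.83, 3.87, 4.34 and 5.05 CPM and Ercc1Δ/- mice 0.607, 2.37, 2.95, 3.50 and 3.77 CPM. The genotypes thus overlapped at 6 weeks and were apart at 22 weeks on both diets.

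Ihh was lower in Ercc1Δ/- than WT mice at 22 weeks on AL (log2 fold change -3.07 ± 0.44, adjusted p = 4.9e-05) and on DR (-2.14 ± 0.28, adjusted p = 8.21e-06). With the counts of each group pooled, 8 in Ercc1Δ/- and 172 in WT mice on AL, the ratio was 0.115 (95% Poisson interval 0.049 to 0.232), and on DR, with 18 and 214 counts, it was 0.221 (0.129 to 0.358). These intervals cover counting error only. The change with age also differed between the genotypes (log2 difference -2.40 ± 0.58, adjusted p = 0.0479), but this call was kept in 6 of 25 further alternatives, with adjusted p up to 0.467 and none given by DESeq2. Both genotype calls at 22 weeks were kept in every alternative that was fitted (17 and 19). Of the cartilage markers, Col2a1, Col9a1 and Matn3 were low, at 0 in 8, 8 and 15 of the 28 libraries. Acan (median 42.5 CPM, 11.7 to 92.6) and Comp (median 87.2 CPM, 39.0 to 166) were found in all 28. The 5 markers together summed to 114 to 174 CPM in Ercc1Δ/- and 150 to 234 CPM in WT mice on AL, and to 63.2 to 134 CPM and 117 to 173 CPM on DR. Of them, Acan was lower in Ercc1Δ/- mice on DR (log2 fold change -1.57, adjusted p = 0.00189), which was kept in all 19 alternatives, and at 6 weeks (-1.27, adjusted p = 0.0269). The latter was lost without a filter on low counts (0.0514) and without replicate 002, 009, 011, 019, 024 or 027 (adjusted p 0.0548 to 0.0789). The part of cartilage in the Ihh level was not tested.

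Dhh, the ligand known from Schwann cells and endothelium, passed no comparison. It ranged from 0.514 to 13.6 CPM, and its log2 difference between the genotypes at 22 weeks on AL was -0.10 ± 0.43 (adjusted p = 0.916). One WT library of 6 weeks (replicate 001) stood apart in Schwann cell markers, with a sum of 973 CPM beside 32.3 to 35.8 CPM in the other 4, and held 9.79 CPM of Dhh. The transporter gene Disp1 (9.52 to 25.8 CPM) passed none either.

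Of the receptors, Ptch1, which binds the ligand and holds Smo in check, passed no test in any of the comparisons. It was 27.5 ± 2.16 CPM (SD, n = 4) in WT and 23.8 ± 6.13 CPM (n = 4) in Ercc1Δ/- mice at 22 weeks on AL, with a log2 difference of -0.20 (95% interval -0.56 to 0.17, adjusted p = 0.524). On DR the values were 29.3 ± 3.13 and 28.2 ± 4.38 CPM (n = 5 each), a log2 difference of -0.07 (-0.36 to 0.22, adjusted p = 0.8).

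Boc, a co-receptor that helps Ptch1 to bind the ligand, was 126 ± 5.99 CPM (n = 4) in WT and 105 ± 16.5 CPM (n = 4) in Ercc1Δ/- mice at 22 weeks on AL. The 2 groups overlapped through 1 Ercc1Δ/- library of 127 CPM, and the log2 difference of -0.25 (95% interval -0.51 to 0.00412) did not pass (adjusted p = 0.2). In WT mice Boc was 113 ± 8.88 CPM on DR, and its exact permutation p against AL of 0.0397 (two-sided) stood beside an adjusted p of 0.528.

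Smo, the membrane protein that passes the signal on, was even in WT mice at 22 weeks on AL, with 120, 124, 125 and 126 CPM. Ercc1Δ/- mice held 92.3, 93.6, 113 and 117 CPM, below all 4 WT libraries, yet the log2 difference of -0.24 ± 0.11 did not pass (adjusted p = 0.167). On DR, WT mice held 95.8, 111, 124, 128 and 129 CPM and Ercc1Δ/- mice 78.8, 85.7, 94.0, 95.5 and 111 CPM. Here Smo was 0.33 ± 0.10 log2 units lower in Ercc1Δ/- mice (adjusted p = 0.0352), although the groups overlapped. This call was kept in 10 of 19 alternatives (adjusted p 0.00637 to 0.115). It was lost without WT replicate 010, 017 or 028 or without Ercc1Δ/- replicate 006, 016 or 029 (-0.32 to -0.27), with thinned counts, with the left-out library added and in a fit of the 2 groups alone.

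Hhip encodes a membrane protein that takes up Hedgehog ligands and so lowers their action. At 22 weeks on AL, the WT libraries held 29.9, 30.9, 42.7 and 42.9 CPM and those of Ercc1Δ/- mice 10.5, 15.4, 19.2 and 20.1 CPM. On DR, the values were 39.5, 49.9, 52.1, 55.7 and 70.2 CPM in WT mice and 28.8, 34.2, 36.1, 42.5 and 45.7 CPM in Ercc1Δ/- mice. At 6 weeks they were 22.1, 28.2, 33.9, 34.8 and 40.1 CPM in WT and 14.4, 16.6, 29.2, 33.7 and 34.6 CPM in Ercc1Δ/- mice. In Ercc1Δ/- mice the DR libraries lay above all 4 on AL and within the range spanned by the WT libraries on AL and DR, apart from 1 at 28.8 CPM. In WT mice 4 of the 5 DR libraries lay above all 4 on AL.

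The rise on DR, on which Hhip was selected, was 1.19 ± 0.19 log2 units in Ercc1Δ/- and 0.48 ± 0.14 in WT mice, and the difference between these was 0.70 ± 0.23. Per 1000 CPM of smooth muscle marker, Hhip stood at 1.05 ± 0.205 on AL and 1.51 ± 0.342 on DR in WT mice, and at 0.817 ± 0.364 and 1.56 ± 0.299 in Ercc1Δ/- mice. In this ratio, which was chosen after the values had been seen, the genotypes overlapped on both diets, whereas the Ercc1Δ/- libraries on DR (1.18 to 1.88) lay just above those on AL (0.410 to 1.16).

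Between the genotypes, the log2 difference of Hhip at 22 weeks was -1.25 ± 0.22 on AL, with the groups apart, and -0.51 ± 0.15 on DR, with overlap. It ranged from -1.47 to -1.09 on AL and from -0.62 to -0.43 on DR over the alternatives. At 6 weeks, in libraries not used to select Hhip, the log2 difference was -0.30 (95% interval -0.69 to 0.10) and did not pass (adjusted p = 0.573). Between 6 and 22 weeks in Ercc1Δ/- mice it was -0.70 ± 0.22, with overlap.

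The 2 low libraries of 6-week Ercc1Δ/- mice (14.4 and 16.6 CPM) were both from males. Without replicate 027 the log2 difference between the ages was -0.79 and without replicate 015 it was -0.77. Over all groups Hhip was 0.34 ± 0.11 log2 units lower in males than in females, which did not pass across all genes (adjusted p = 0.282). The genes nearest to Hhip were Tes (r = 0.774), Kpnb1 (0.772), Helz (0.753), Zfp354a (0.753) and Kmt2c (0.746), with 0.526, 0.431, 0.378, 0.54 and 0.391 after centring within groups.

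**Figure D3:**
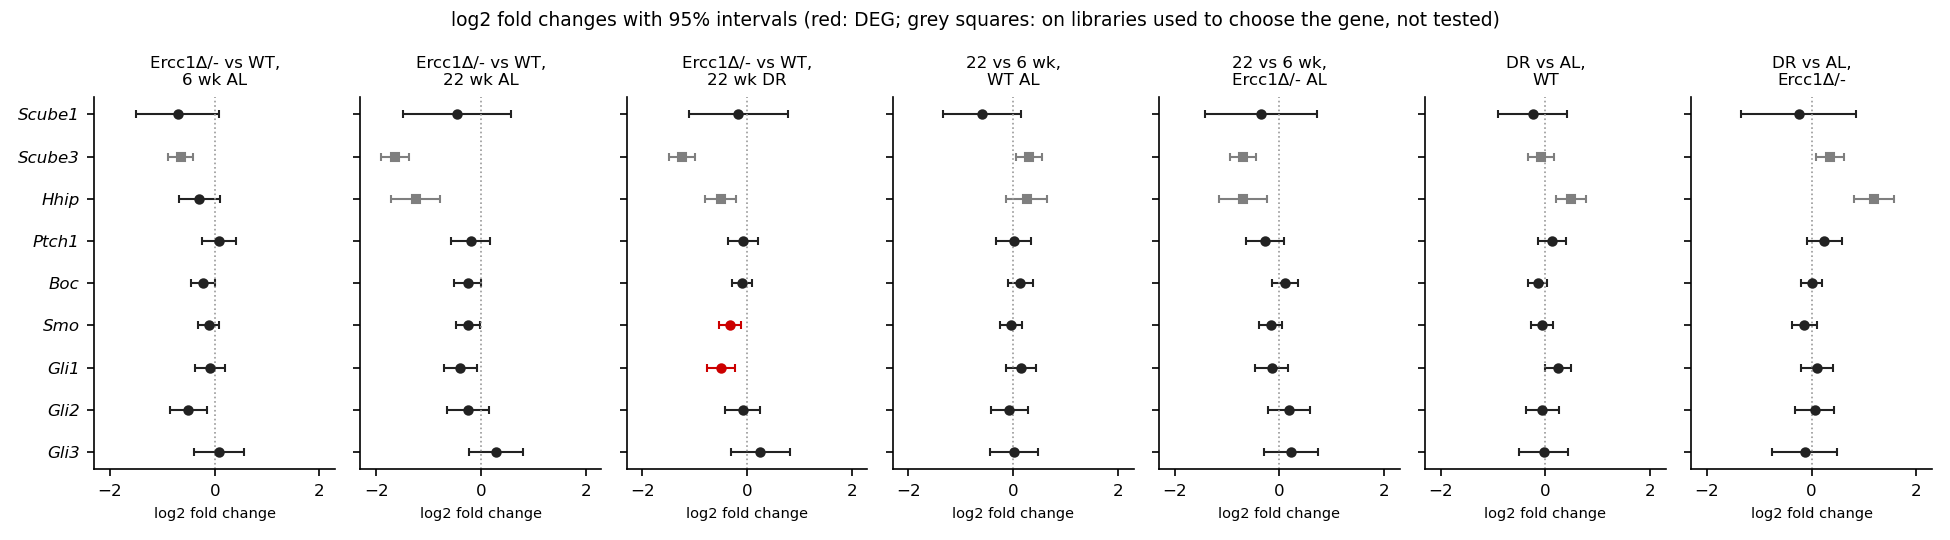
log2 fold changes (horizontal axes) of the 9 tested genes (vertical axis) in 7 comparisons, with 95% intervals; red marks a DEG, black a value that was not one, and grey squares the untested values of Scube3 and Hhip on libraries used in the selection. The 2 red points are Smo (-0.33) and Gli1 (-0.49) in Ercc1Δ/- against WT mice on DR.

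Gli1, a transcription factor and a common readout of the pathway, held 53.0, 55.8, 58.3 and 61.9 CPM in WT mice at 22 weeks on AL. The Ercc1Δ/- mice held 34.3, 34.8, 43.6 and 60.9 CPM, so that 3 of 4 lay below the WT range. The log2 difference of -0.39 ± 0.16 did not pass (adjusted p = 0.11). It passed in 1 of 17 alternatives (adjusted p 0.0238 to 0.308). That was the fit without Ercc1Δ/- replicate 013, the library of 60.9 CPM, where it was -0.56 (adjusted p = 0.0238). On DR, WT mice held 42.1, 63.8, 71.9, 73.7 and 77.7 CPM and Ercc1Δ/- mice 30.8, 44.6, 47.1, 49.5 and 56 CPM. Gli1 was 0.49 ± 0.13 log2 units lower in Ercc1Δ/- mice there (adjusted p = 0.0105), with overlap through 1 WT library. This call was kept in 18 of 19 alternatives, and the adjusted p was 0.0571 without the sex term.

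No change of Gli1 with DR passed the test, with a log2 difference of 0.24 (95% interval -0.01 to 0.49, adjusted p = 0.42) in WT and 0.10 (-0.20 to 0.40, adjusted p = 0.8) in Ercc1Δ/- mice. In Ercc1Δ/- mice on DR, Hhip and Gli1 stood at 37.4 ± 6.72 and 45.6 ± 9.31 CPM (SD, n = 5) against 16.3 ± 4.36 and 43.4 ± 12.5 CPM (n = 4) on AL. The annotation places the end of Arhgap9, on the opposite strand, over that of Gli1. Arhgap9 held 255 counts over 28 libraries and Gli1 5623.

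Gli2, an activator of the pathway, was 26.4 ± 6.13 CPM in Ercc1Δ/- and 37.4 ± 6.51 CPM in WT mice at 6 weeks (SD, n = 5 each). The log2 difference of -0.50 ± 0.17 did not pass across all genes (adjusted p = 0.167), with a two-sided exact permutation p of 0.0317. At 22 weeks it was -0.25 (95% interval -0.65 to 0.15, adjusted p = 0.448) on AL and -0.08 (-0.41 to 0.25, adjusted p = 0.816) on DR. Gli3, which acts mainly as a repressor, was low (3.86 to 15.9 CPM) and passed no test. Its log2 difference between genotypes at 22 weeks on AL was 0.29 (-0.22 to 0.80, adjusted p = 0.49).

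**Figure D4:**
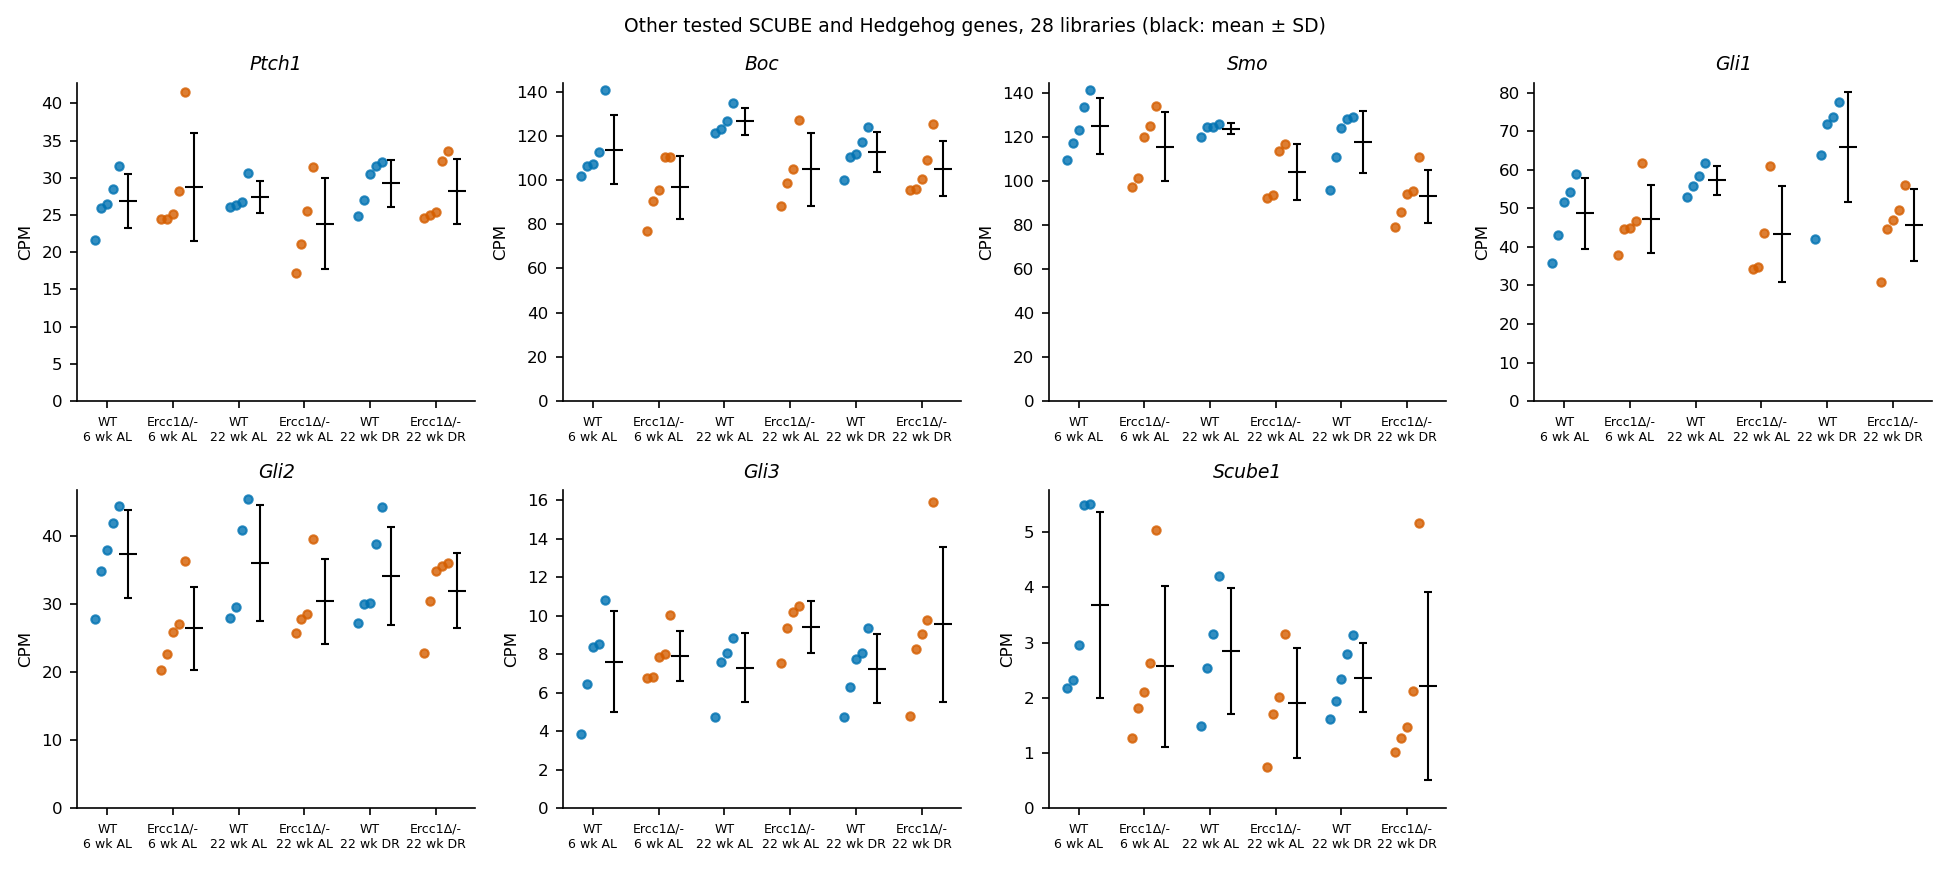
The other 7 tested genes in CPM (vertical axes) in the 6 groups (horizontal axes); each point is 1 library, with WT in blue and Ercc1Δ/- in orange, and the black bars are mean ± SD. The genotypes overlap in nearly all panels, and the 5 Ercc1Δ/- libraries on DR lie at 78.8 to 111 CPM for Smo and at 30.8 to 56 CPM for Gli1, below 4 of the 5 WT libraries on DR in each.

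Counted together, the 9 tested genes included 1 DEG between the genotypes at 6 weeks (Scube3), where 1.70% of all genes were called. At 22 weeks on AL, 2 of 9 were called (Scube3 and Hhip) against 12.0% of all genes. On DR, 4 of 9 were called, Scube3, Hhip, Gli1 and Smo, all lower in Ercc1Δ/- mice, against 13.0% of all genes. Between 6 and 22 weeks, 1 of 9 was called in Ercc1Δ/- mice (Scube3) against 4.69%, and 0 of 9 in WT mice against 0.235%. For the genotype by age interaction 1 of 9 was called (Scube3) against 0.842%. DR called 1 of 9 in Ercc1Δ/- mice (Hhip) against 1.64% and 0 of 9 in WT mice against 1.28%. For the genotype by diet interaction 0 of 9 were called against 0.0971%, and between the sexes 0 of 9 against 0.186%. The calls of Scube3 and Hhip rest on libraries used in their selection, and nothing is read from them.

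In the 4 comparisons with 0 calls by edgeR, an unadjusted p under 0.05 was reached by 1 gene for age in WT mice, 1 for DR in WT mice, 2 for the genotype by diet interaction and 3 for sex. The genes were Scube3 for age, Hhip for DR and both for the interaction. These values rest on libraries used in the selection of the 2 genes, and nothing is read from them. DESeq2 called 0 in each, giving no adjusted p for 1 gene in the genotype by diet interaction. The 3 genes with such a p between the sexes were Hhip, Gli1 (0.29 ± 0.09 log2 units higher in males, adjusted p = 0.23) and Boc (0.13 ± 0.06 higher, adjusted p = 0.611). The median log2 difference between genotypes over the 9 genes was -0.25 at 22 weeks on AL and -0.16 on DR, beside 0.03 and 0.00391 over all genes tested. Scube3 and Hhip, selected on values of these libraries, are among the 9 genes, so nothing is read from these medians.

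Beyond these genes, 64 further genes of the pathway and of reported SCUBE partners were listed, of which 57 were tested. At 22 weeks on AL, 6 of 57 (10.5%) were called between the genotypes, against 12.0% of all genes, and on DR 5 of 57 (8.77%), against 13.0%. Both shares were below those of all genes. At 6 weeks 0 of 57 passed with edgeR, with 9 at an unadjusted p under 0.05 and 1 called by DESeq2. DR called 3 of 57 (5.26%, against 1.28% of all genes) in WT and 1 of 57 (1.75%, against 1.64%) in Ercc1Δ/- mice. Age called 1 of 57 (1.75%, against 0.235%) in WT and 3 of 57 (5.26%, against 4.69%) in Ercc1Δ/- mice, and the genotype by age interaction 1 of 57 (Ihh; 1.75%, against 0.842%). The genotype by diet interaction and sex called 0 of 57 each with edgeR, with 5 and 3 at an unadjusted p under 0.05 and 0 and 1 called by DESeq2.

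Among the co-receptors, Gpc3, a glypican that binds Hedgehog ligands at the cell surface and limits their action, differed. At 22 weeks on AL, WT mice held 92.0, 96.6, 117 and 127 CPM and Ercc1Δ/- mice 46.3, 48.2, 85.8 and 90.1 CPM. On DR, WT mice held 128, 143, 146, 150 and 158 CPM and Ercc1Δ/- mice 92.1, 95.6, 113, 120 and 123 CPM. The genotypes were apart on each diet, and the DR libraries lay above those on AL in each genotype. Gpc3 was 0.86 ± 0.22 log2 units lower in Ercc1Δ/- mice on AL (adjusted p = 0.0136) and 0.41 ± 0.12 lower on DR (adjusted p = 0.0236). In Ercc1Δ/- mice it was 0.71 ± 0.14 higher on DR than on AL (adjusted p = 0.00835). In WT mice the difference of 0.38 ± 0.12 with DR did not pass (adjusted p = 0.156). Without the sex term the 3 adjusted p in the order given were 0.187, 0.082 and 0.0563. On AL the 2 female Ercc1Δ/- libraries (85.8 and 90.1 CPM) lay above the 2 male ones. The call on DR was kept in 10 of 19 alternatives and was also lost without WT replicate 007 or 028 or Ercc1Δ/- replicate 006, 014, 016 or 022 (adjusted p 0.0519 to 0.0786), with thinned counts (0.29) and in a fit over all 6 groups (0.117).

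Hhip and Gpc3, both of which limit Hedgehog ligands at the cell surface, each had lower values in Ercc1Δ/- than WT mice at 22 weeks on AL, and higher values on DR than on AL in Ercc1Δ/- mice. The co-receptor genes Cdon, Gas1 and Gpc1 passed no comparison. Gas1, with 96.7 to 180 CPM, had a log2 difference between genotypes of 0.01 ± 0.16 on AL (adjusted p = 0.98), and Cdon one of 0.12 ± 0.17 (adjusted p = 0.698).

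Of the 20 genes that act on the signal in the cytoplasm, by passing it on or by restraining it, Prkacb was called in 2 comparisons. Prkacb encodes a catalytic subunit of protein kinase A. It was 75.8, 91.8, 93.6 and 94.8 CPM in Ercc1Δ/- and 120, 120, 127 and 132 CPM in WT mice at 22 weeks on AL, 0.49 ± 0.10 log2 units lower (adjusted p = 0.0016). Between 6 and 22 weeks it fell by 0.33 ± 0.09 log2 units in Ercc1Δ/- mice (adjusted p = 0.0428), a call kept in 6 of 18 alternatives (adjusted p up to 0.155) and lost without replicate 002, 004, 005, 008, 015, 023 or 026. The 14 genes of the primary cilium, the structure in which the signal is processed, included 0 calls with edgeR and 0 with DESeq2 in any comparison. Over all genes, edgeR called 0.0971% to 13.0% per comparison. An unadjusted p under 0.05 was found for 16 of 140 values of the cilium genes. Per comparison this was 0 to 3 of 14 genes, beside 967 (sex) to 3229 (genotype on DR) of all 12353 genes.

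Of the 6 tested genes known to respond to GLI factors, 5 were called in at least 1 of the 10 comparisons, in both directions, beside 21.6% of all genes tested. Foxf1, a transcription factor of mesenchyme, held 15.6, 15.8, 16.1 and 18.7 CPM in Ercc1Δ/- and 22.5, 26.0, 27.0 and 28.0 CPM in WT mice at 22 weeks on AL (log2 fold change -0.67 ± 0.17, adjusted p = 0.0113). With counts thinned to equal depth this call was lost (-0.54, adjusted p = 0.196). In WT mice it was 0.70 ± 0.15 log2 units higher at 22 than at 6 weeks (adjusted p = 0.0493), a call kept in 5 of 18 alternatives and lost on leaving out any of 8 of the 9 libraries (all but replicate 024). Foxl1, of the same kind, was 1.03, 2.12, 2.54, 2.58 and 5.15 CPM in Ercc1Δ/- and 5.98, 6.74, 7.12, 8.49 and 9.02 CPM in WT mice on DR (-1.29 ± 0.36, adjusted p = 0.0195), from 2 to 14 counts per Ercc1Δ/- library. This call was lost without Ercc1Δ/- replicate 006 or 029 (adjusted p 0.0545 and 0.0886) and with thinned counts (0.243). The cell cycle kinase gene Cdk6 was 0.66 ± 0.14 log2 units lower in Ercc1Δ/- mice on DR (adjusted p = 0.00242) and 0.57 ± 0.15 lower at 22 than at 6 weeks in Ercc1Δ/- mice (adjusted p = 0.025). The latter was lost without replicate 002, 004, 005, 008 or 026 (adjusted p up to 0.105), in a fit of the 2 groups alone (0.09) and with the left-out library added (0.171).

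The cyclin gene Ccnd1, which many other signals also induce, went the other way. It held 19.6, 44.9, 48.7 and 48.9 CPM in Ercc1Δ/- and 19.7, 20.8, 23.1 and 30.0 CPM in WT mice at 22 weeks on AL. On DR it held 22.9, 25.5, 29.1, 33.6 and 34.4 CPM and 10.7, 11.7, 12.2, 15.0 and 15.5 CPM. The log2 fold changes of Ercc1Δ/- against WT mice were 0.91 ± 0.22 (adjusted p = 0.0103) and 1.16 ± 0.20 (adjusted p = 4.5e-04). In WT mice on DR, Ccnd1 was lower with a log2 fold change of -0.81 ± 0.19 (adjusted p = 0.0354) and Ccnd2 with one of -0.49 ± 0.12 (adjusted p = 0.0453). These last calls were kept in 9 and 8 of 18 alternatives. That of Ccnd1 was lost on leaving out any WT library but 007 and 018, and that of Ccnd2 any but 007 and 012. The Ccnd1 call between the genotypes on AL was lost with thinned counts (0.70, adjusted p = 0.157), in a fit of the 2 groups alone (adjusted p = 0.0685) and without WT replicate 018 (adjusted p = 0.0657). The genes of the GLI-responsive list thus did not share a direction between the genotypes.

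Of the 9 tested SCUBE partners, which are receptors and ligands of the TGF-β and BMP families and Kdr, 1 passed in each of 3 comparisons. Of all genes, 12.0% were called between the genotypes at 22 weeks on AL. The shares were 4.69% for age in Ercc1Δ/- mice and 1.28% for DR in WT mice. Bmpr1a was 0.34 ± 0.11 log2 units lower in Ercc1Δ/- mice at 22 weeks on AL (adjusted p = 0.0459), a call kept in 6 of 17 alternatives and lost on leaving out any of the 8 libraries. Bmp2 was 1.11 ± 0.27 log2 units higher at 22 than at 6 weeks in Ercc1Δ/- mice (adjusted p = 0.0186), which was lost without replicate 004, 005, 008 or 023 (adjusted p 0.0598 to 0.11), in a fit of the 2 groups alone (0.0913) and with thinned counts (0.335). Tgfbr2 was 0.36 ± 0.09 log2 units lower on DR in WT mice (adjusted p = 0.0339), which was lost without replicate 010, 017, 018, 020, 021 or 028 (adjusted p up to 0.231).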

How the data were processed

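The authors aligned the reads with STAR 2.7.10a to mm39 (GRCm39), removed duplicates by unique molecular identifiers with UMI-tools 1.1.2 and counted them per gene with HTSeq 2.0.2, and they deposited these whole-number counts without normalization. The library kit keeps strand, but the strand setting of the counting is not given in the sources used here. The 5 lines that name no gene were left out. Among them, the lines for ambiguous reads, reads on no gene and reads aligned more than once held 12.6% to 18.7% of the counts in the 28 libraries. Sample 003 (400410 counts), which the study left out, was left out and added back as an alternative.

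Counts were tested with edgeR 4.0.16 (quasi-likelihood, TMM; R 4.3.3) with group and sex as terms, genotype and age over the 18 AL-fed libraries, diet and genotype on DR over the 18 of 22 weeks. To be tested, a gene needed over 10 counts in over 10 of 28 libraries. DEGs were genes whose p, adjusted after Benjamini and Hochberg, did not exceed 0.05 and whose change reached 1.2-fold, with no fold limit for interactions. Adjusted p are from edgeR over all 12353 genes. CPM are counts scaled by the TMM-adjusted library size, and RPKM divide them by exon length. Intervals cover 95%. Fold changes are Ercc1Δ/- against WT, older against younger, DR against AL and male against female. Exact permutation tests compared the mean log2 CPM of a single gene.

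The members and lists were chosen with earlier results of these data known. All 10 members are named, with the genes of the lists that were DEGs, the Ercc1 check and the 5 genes nearest to Scube3 and to Hhip. Genes that passed no test are also named where a list or a role is described. Each mouse gave 1 library, so no libraries were paired. Promoter windows were cut from GRCm39 at GENCODE vM39 starts. The procedure was tested on simulated data of 12353 genes for the genotype comparison at 22 weeks on AL, where 73 of 100 genes changed 2-fold and 89 of 100 changed 3-fold were called. Alternatives were RLE factors, DESeq2 1.42.0, no filter, sample 003 added, no sex term, the compared groups only, all 6 groups, counts thinned to 921167 per library, each library left out and, added after the data were seen, the earlier edgeR dispersions.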

Additional observations from a re-analysis of the deposited data

Results flagged for a closer look

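Within groups of 4 or 5 libraries, 1 library stood far from the rest in 11 of the 120 groups examined, where chance alone gives about 1 in 20. Among the Hedgehog genes, Scube1 was 5.17 CPM in Ercc1Δ/- replicate 016 on DR, with the next library at 2.12 CPM. Ptch1 was 41.5 CPM in Ercc1Δ/- replicate 015 at 6 weeks (next 28.3 CPM) and 30.7 CPM in WT replicate 025 at 22 weeks on AL (next 26.7 CPM). Boc was 141 CPM in WT replicate 009 at 6 weeks (next 113 CPM).

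Among the other genes, Ihh was 0.646 CPM in Ercc1Δ/- replicate 016 on DR (next 2.12 CPM), Prkacb 75.8 CPM in Ercc1Δ/- replicate 026 on AL (next 91.8 CPM) and Ccnd1 19.6 CPM in Ercc1Δ/- replicate 013 on AL (next 44.9 CPM). Cdk6 was 23.2 CPM in WT replicate 025 at 22 weeks on AL (next 19.5 CPM) and Bmp2 11.3 CPM in Ercc1Δ/- replicate 002 at 6 weeks (next 6.03 CPM). Ccnd2 was 208 CPM both in WT replicate 009 at 6 weeks (next 247 CPM) and in WT replicate 012 at 22 weeks on AL (next 257 CPM).

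The effect of genotype on Ihh differed between the ages in the main fit, with an interaction of -2.40 log2 units (edgeR, adjusted p = 0.0479). It rests on 1 to 3 counts per library in Ercc1Δ/- mice of 22 weeks on AL. The call was kept in 6 of 25 alternatives, with adjusted p up to 0.467.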

How the results depend on the processing

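No call of a Hedgehog or SCUBE gene turned its direction under any alternative. The number of called genes moved by over 1.5 times in 4 comparisons. With counts thinned to 921167 it was 2 in place of 1 for age in Ercc1Δ/- mice, 2 in place of 4 for genotype on DR and 1 in place of 0 for sex. Without a filter on low counts it was 1 in place of 0 for DR in WT mice. Leaving out single libraries gave 1 to 2 for age in Ercc1Δ/- mice and 2 to 4 for genotype on DR. The cause was not tested. Over all genes, DESeq2 called 378 in place of 210 for genotype at 6 weeks, 106 in place of 29 for age in WT mice, 197 in place of 104 for genotype by age, 348 in place of 202 for DR in Ercc1Δ/- mice, 43 in place of 12 for genotype by diet and 52 in place of 23 for sex. The lowest counts were 102, 8, 55, 78, 2 and 22 in the same order. Genotype at 22 weeks on AL called 798 to 1685 (1487 as reported), age in Ercc1Δ/- mice 322 to 748 (579), DR in WT mice 44 to 307 (158) and genotype on DR 1039 to 1755 (1605). No paired analysis was possible because each mouse gave 1 library and the groups share no numbers. Depth limits Scube1, Scube2, Gli3 and Ihh, with few counts per library, and the shallower Ercc1Δ/- libraries of 22 weeks limit each comparison with WT mice of that age. Libraries were separate mice, so the spread is between mice.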
